A study of Mus musculus with 12 samples.

Results

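The mitochondrial carriers of the Slc25 family were followed in TSC2-/- mouse embryonic fibroblasts (MEFs) through 2 experiments. Members were the genes whose single symbol in the platform annotation is Slc25a and a number, apart from Slc25a11, Slc25a12, Slc25a13 and Slc25a20, which left 40 of 18193 named genes. For each gene, the probe set brightest over the 12 Affymetrix MOE430 v2 arrays stood for it, and no member was dropped for low signal. In the first experiment cells received 20 nM rapamycin or the vehicle DMSO for 14 h. In the second, confluent cells were infected for 10 h with adenovirus expressing PGC-1alpha or GFP and harvested 14 h after a change of medium. Cells of all groups grew in DMEM with 10% CCS, an abbreviation the labels do not expand. Each of the 4 groups had 3 arrays, described by the submitters as biological triplicates. All groups lack TSC2, and both groups of the second experiment carry adenovirus, so neither the deletion nor the infection has a comparator here.

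Most carriers of this family sit in the inner mitochondrial membrane, a few in the outer membrane or in peroxisomes, and the inner membrane ones exchange metabolites, nucleotides and cofactors between the matrix and the cytosol. A typical carrier is built of repeated modules of paired membrane helices and opens to either side in turn. These carriers are made in the cytosol and inserted by the TIM22 route, with small Tim proteins as escorts through the intermembrane space. TSC2 restrains the growth kinase mTOR, which rapamycin inhibits, and PGC-1alpha is a coactivator known for raising nuclear genes of mitochondria. Per its title, the study addressed mTOR control of mitochondrial genes through YY1 and PGC-1alpha. The question here is how the carriers took part in each response.

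Within each group, pairs of arrays had correlations of at least 0.997 over all probe sets in log2 intensity. The GFP group was the least uniform, with SDs of 0.155 and 0.167 for the log2 differences between replicate 3 and the other GFP arrays. Ppargc1a, the gene of PGC-1alpha, read 2295, 2183 and 2554 on the PGC-1alpha arrays, against 81.0, 81.0 and 101 on the GFP arrays. All 8 fibroblast markers were bright, with mean log2 intensities from 7.96 for Pdgfrb to 13.56 for Fn1. Epcam, an epithelial marker, was also at 9.50, and the macrophage marker Csf1r at 7.77. The other epithelial marker, Cdh1, was at 5.08. The other macrophage markers were at 4.62 (Ptprc), 5.98 (Cd68) and 6.01 (Adgre1). The endothelial markers lay at 4.80 to 5.0. Summed marker intensities did not overlap between rapamycin and vehicle for fibroblast (54937 to 58936 with rapamycin, 53792 to 54904 with vehicle; 3 of 8 markers raised), macrophage (401 to 413 with rapamycin, 358 to 394 with vehicle; 1 of 4 raised) and epithelium (733 to 788 with rapamycin, 666 to 713 with vehicle; 1 of 2 raised). The summed pair of measured adipocyte markers ran from 65.3 to 72.5 with rapamycin, against 73.2 to 77.0 with vehicle, and from 64.6 to 67.8 with PGC-1alpha, against 61.9 to 64.4 with GFP, and 0 of them passed the test. The fibroblast sum spanned 50060 to 50411 on PGC-1alpha arrays, against 46028 to 49828 on GFP arrays, with 0 of 8 markers past the test. The other marker sums, muscle, neural and endothelial in both comparisons and macrophage and epithelial with PGC-1alpha, overlapped between groups. Mean log2 intensities of muscle markers ran from 5.92 (Myog) to 7.14 (Ckm), and of neural markers from 3.68 (Snap25) to 7.03 (Gfap). The measured adipocyte markers were at 4.13 (Adipoq) and 5.66 (Cidea). The lowest deposited value was 9.30 in intensity, so no marker could read 0, and a listed value alone does not show expression. The 3'/5' signal ratio of beta-actin overlapped between rapamycin arrays (1.299 to 1.320) and vehicle arrays (1.291 to 1.329). It also overlapped between PGC-1alpha arrays (1.314 to 1.329) and GFP arrays (1.256 to 1.315). The ratio of Gapdh did not overlap, and was 0.807 to 0.826 on rapamycin arrays, against 0.840 to 0.861 on vehicle arrays. In the other experiment it was 0.894 to 0.905 on PGC-1alpha arrays, against 0.865 to 0.879 on GFP arrays. The part of these differences in the results was not tested.

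The promoter windows of 4 carriers are shown because the series concerns transcriptional control. They are Slc25a33 and Slc25a10, which fell furthest with rapamycin, Slc25a39, which rose furthest with PGC-1alpha, and Slc25a3, the phosphate carrier, which passed in neither comparison and was picked for the letters in its window. Each runs 5′ to 3′ on the gene's own strand from 250 bases before to 50 bases after the RefSeq start (GRCm38.p6). Capitals mark a match on either strand to the NRF1 letters (GCGC, any 2 letters and GCGC again), the YY1 letters AANATGGC, the ETS letters CCGGAAG or the E-box CACGTG, and none of the matches overlapped another.
Slc25a33 (chr4:149774218-149774517, minus strand): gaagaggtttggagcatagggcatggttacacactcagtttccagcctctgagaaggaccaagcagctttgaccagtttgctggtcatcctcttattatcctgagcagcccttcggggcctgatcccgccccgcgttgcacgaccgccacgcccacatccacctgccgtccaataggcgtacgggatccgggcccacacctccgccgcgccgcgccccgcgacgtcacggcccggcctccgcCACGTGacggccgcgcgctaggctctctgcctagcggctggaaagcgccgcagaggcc
Slc25a10 (chr11:120491587-120491886, plus strand): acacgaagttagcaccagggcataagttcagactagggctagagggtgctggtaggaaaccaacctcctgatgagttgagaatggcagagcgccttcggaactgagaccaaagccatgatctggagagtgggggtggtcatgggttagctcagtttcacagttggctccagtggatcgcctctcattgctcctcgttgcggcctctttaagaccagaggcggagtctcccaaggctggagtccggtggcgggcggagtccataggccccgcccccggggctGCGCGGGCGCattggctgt
Slc25a39 (chr11:102407468-102407767, minus strand): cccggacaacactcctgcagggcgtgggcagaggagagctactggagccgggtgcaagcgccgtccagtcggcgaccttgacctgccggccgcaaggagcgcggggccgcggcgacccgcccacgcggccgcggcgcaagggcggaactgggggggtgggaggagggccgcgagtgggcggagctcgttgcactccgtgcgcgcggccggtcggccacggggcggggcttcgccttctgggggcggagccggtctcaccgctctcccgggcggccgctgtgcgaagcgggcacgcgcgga
Slc25a3 (chr10:91123918-91124217, minus strand): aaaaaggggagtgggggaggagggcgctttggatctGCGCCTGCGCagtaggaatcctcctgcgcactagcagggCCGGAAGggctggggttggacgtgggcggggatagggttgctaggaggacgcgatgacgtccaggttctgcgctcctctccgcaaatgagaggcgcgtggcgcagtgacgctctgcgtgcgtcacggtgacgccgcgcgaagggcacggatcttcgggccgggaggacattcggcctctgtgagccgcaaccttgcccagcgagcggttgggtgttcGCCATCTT

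Windows were found for 30 of the 40 members. The NRF1 letters were in 3 of these 30, namely Slc25a3, Slc25a10 and Slc25a31, against 7.0% of 27025 genes with windows. The YY1 letters were in 2, Slc25a3 and Slc25a14, against 6.96% of genes, and the ETS letters in 6 against 9.93%. The E-box, added to the search after the Slc25a33 window had been read, was in 6 members (Slc25a1, Slc25a14, Slc25a15, Slc25a31, Slc25a33 and Slc25a36), against 8.09% of genes. In Slc25a33 the E-box began 8 bases before the start, and in Slc25a10 the NRF1 letters began at base 32 after it. The letters TNAAGGTCA, the element of the estrogen-related receptors through which PGC-1alpha is known to act, were in 0 of the 30 members and 1.43% of genes. The Slc25a39 window held none of the 5 sets of letters. The member windows had a median GC content of 60%, against 52.7% over all windows, and the shares are not corrected for it. A match is only a match of letters, and its absence says nothing of a factor outside or inside this window.

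Rapamycin lowered 12 of the 40 carriers and raised 2. The pyrimidine nucleotide carrier Slc25a33 fell 2.06-fold, the dicarboxylate carrier Slc25a10 1.60-fold and the folate and FAD carrier Slc25a32 1.54-fold, while the other pyrimidine nucleotide carrier, Slc25a36, rose 1.35-fold. The lowered share of 30% stood beside 18% of all 18193 genes, and the share called in either direction was 35% of carriers against 29.3% of genes, with 11.3% of genes raised. Every rapamycin array lay below every vehicle array for 14 carriers and above for 2, beside 42.1% of genes without overlap in either direction. Changes were called by limma at an adjusted p under 0.05 over all probe sets, and errors are its standard errors (SE) on the log2 scale. The median carrier changed by -0.08 and the median gene by -0.01 on the log2 scale. Bulk arrays cannot tell fewer cells of a kind from less RNA per cell. Scaled on the bacterial spike controls, which shifts every change by -0.19, 25 carriers were lowered and 1 raised, beside 46.1% of all genes lowered, so directions are relative to the authors' normalization.

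**Figure D1:**
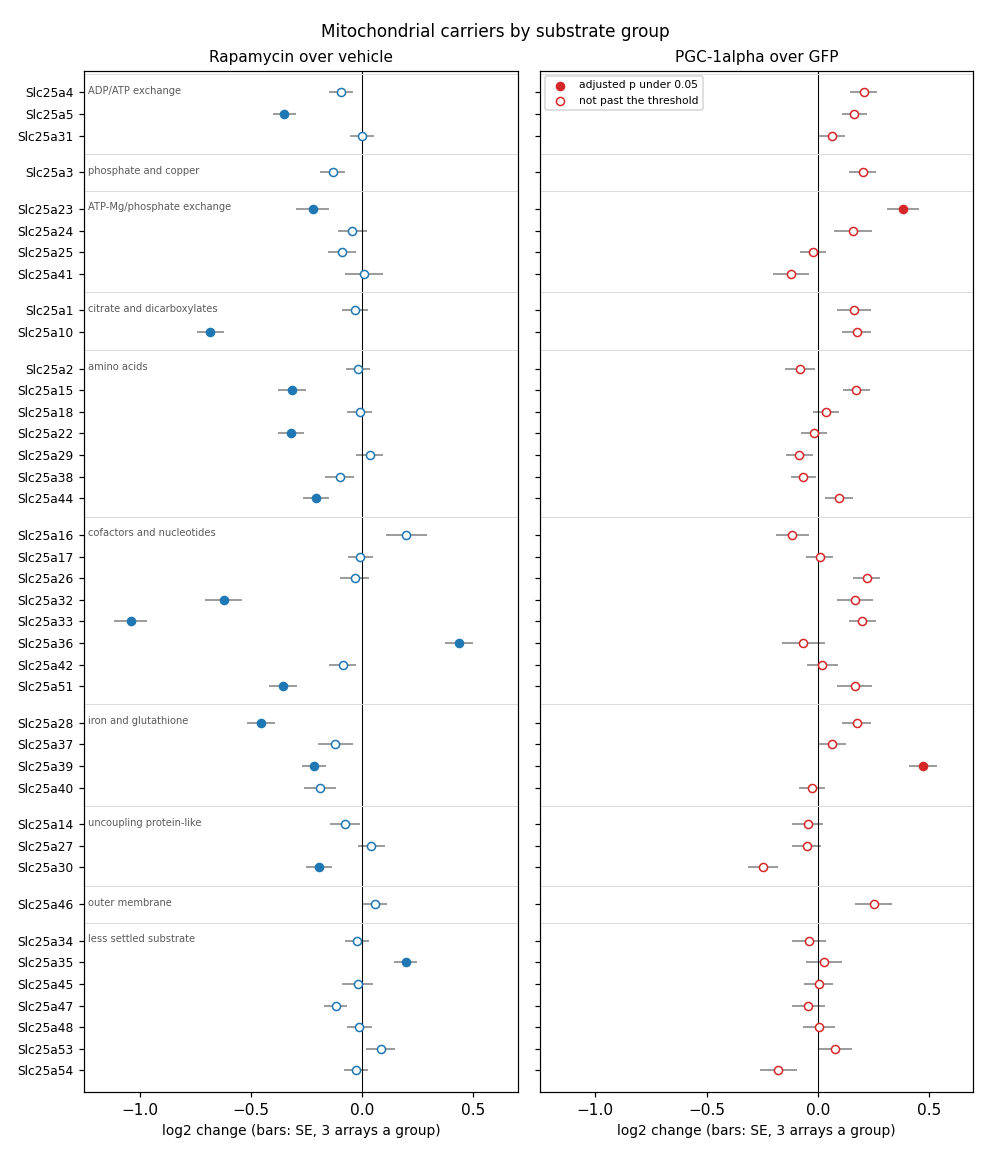
Log2 change of each of the 40 carriers (rows, grouped by substrate) with rapamycin over vehicle on the left and PGC-1alpha over GFP on the right, with bars for the SE and 3 arrays a group. Filled points passed the adjusted threshold: 14 carriers on the left, from Slc25a33 at -1.04 to Slc25a36 at 0.44, and Slc25a23 and Slc25a39 on the right.

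Carriers of nucleotides and cofactors held the widest range of changes. Of these 8, 3 were lowered and 1 raised, beside 18% of all genes lowered and 11.3% raised. Slc25a33 imports pyrimidine nucleotides for mitochondrial DNA and RNA, and in human cells is known as a transcript induced by insulin-like growth factor and mTOR signalling. Its intensities were 182, 216 and 183 on the rapamycin arrays, against 428, 372 and 393 on the vehicle arrays. No rapamycin value reached the lowest vehicle value, and the change was -1.04 on the log2 scale (SE 0.07, adjusted p = 7.8e-07). Slc25a36, which carries the same class of substrate, moved the other way. It read 576, 643 and 599 on the rapamycin arrays, against 429.9, 479 and 436 on the vehicle arrays. The groups did not overlap and the rise was 0.44 (SE 0.06, adjusted p = 0.00017), while its other probe sets were at 0.26 (past the threshold) and 0.09. The 2 carriers differ in direction within the same arrays.

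Slc25a32 brings folate and FAD into the matrix. It read 49.7, 55.0 and 63.4 on the rapamycin arrays, against 80.9, 93.6 and 83.3 on the vehicle arrays, and all 3 of its probe sets fell. Its change was -0.62 (SE 0.08, adjusted p = 9.8e-05). Slc25a51, the mammalian NAD carrier, read 801, 921 and 801 on the rapamycin arrays, against 1062, 1098 and 1064 on the vehicle arrays. Its groups did not overlap either, and it fell by 0.36 on the log2 scale (SE 0.06, adjusted p = 0.00086). Of its other probe sets, one fell by 0.53 and the last was at 0.02. The 4 remaining members of the group did not pass: Slc25a16 (coenzyme A, 0.20), Slc25a17 (peroxisomal cofactors, -0.01), Slc25a26 (S-adenosylmethionine, -0.03) and Slc25a42 (coenzyme A, -0.09).

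Of the carriers of citrate and dicarboxylates, Slc25a10 fell and Slc25a1 did not pass. Slc25a10 exchanges malate or succinate for phosphate. It read 371, 398 and 419 on the rapamycin arrays, against 617, 639 and 648 on the vehicle arrays. Every rapamycin array lay far below every vehicle array, with a change of -0.68 (SE 0.06, adjusted p = 2.9e-06), and its second probe set fell by 0.71. Slc25a1 exports citrate, the carbon source of cytosolic acetyl-CoA. It read 683, 759 and 738 on the rapamycin arrays, against 713, 750.1 and 763 on the vehicle arrays. These values overlapped (log2 change -0.03, SE 0.06, adjusted p = 0.78).

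All 4 carriers of iron and glutathione had negative changes with rapamycin, as had 32 of all 40 carriers. Of the 4, 2 passed, beside 18% of all genes lowered. Of all genes, 32.5% were negative with rapamycin and positive with PGC-1alpha, and 22.3% were negative in both comparisons. Slc25a28, mitoferrin-2, imports iron for heme and iron-sulfur clusters outside the red cell lineage. It read 306, 351 and 308 on the rapamycin arrays, against 434, 443 and 444 on the vehicle arrays. The groups were clearly apart (log2 change -0.45, SE 0.06, adjusted p = 0.00011). Its erythroid relative Slc25a37, mitoferrin-1, was at -0.12 (adjusted p = 0.33). Slc25a39, which imports glutathione, read 2486, 2684 and 2525 on the rapamycin arrays, against 2962, 2931 and 3050 on the vehicle arrays. It fell less, by 0.22 on the log2 scale (SE 0.05, adjusted p = 0.0093), without overlap. Among its 5 probe sets 2 passed, and 3 did not, at -0.16, -0.06 and 0.06. Its paralog Slc25a40 was at -0.19 (adjusted p = 0.078), with overlapping arrays.

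The carriers that supply the respiratory chain with ADP and phosphate include 1 that fell with rapamycin, Slc25a5. Slc25a5 is the ADP/ATP carrier of proliferating cells. It read 5105, 5326 and 5158 on the rapamycin arrays, against 6674, 6679 and 6526 on the vehicle arrays. The arrays of a group agreed closely and the groups did not overlap (log2 change -0.35, SE 0.05, adjusted p = 0.00020). All 8 of its probe sets fell, by 0.22 to 0.40. Slc25a4, the ADP/ATP carrier typical of heart and muscle, read 4629, 4838 and 4863 on the rapamycin arrays, against 5177, 5108 and 5018 on the vehicle arrays. The groups did not overlap but the change of -0.10 did not pass (SE 0.05, adjusted p = 0.23), although one of its 4 probe sets fell by 0.21. Slc25a4 and Slc25a5 are close paralogs, and several of their probe sets are of a class that can bind similar transcripts, so the array may mix them. Slc25a31, the germ cell ADP/ATP carrier, read 14.5, 14.3 and 14.4 on the rapamycin arrays, against 14.8, 13.9 and 14.6 on the vehicle arrays. The phosphate and copper carrier Slc25a3 read 6233, 6715 and 6512 on the rapamycin arrays, against 7176, 7219 and 6936 on the vehicle arrays. The groups were apart, but the change of -0.13 was not past the threshold (SE 0.05, adjusted p = 0.096). It did pass with quantile normalization over 12 arrays, spike scaling, a pseudocount of 16 or eBayes with trend and robust.

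One of the 4 carriers that exchange ATP-Mg for phosphate was called, beside 18% of all genes lowered and 11.3% raised. Slc25a23 read 149, 179 and 149.7 on the rapamycin arrays, against 176, 195 and 186 on the vehicle arrays. The groups overlapped and the change of -0.22 only just passed (SE 0.07, adjusted p = 0.043). The call was lost without vehicle replicate 2 or 3 or rapamycin replicate 1 or 3, and with a pseudocount of 16. Slc25a24 (-0.04), Slc25a25 (-0.09) and Slc25a41 (0.01) did not pass.

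Among 7 amino acid carriers 3 fell and 0 rose, beside 18% of all genes lowered and 11.3% raised. Slc25a22 imports glutamate. It read 422, 435 and 420.0 on the rapamycin arrays, against 537, 497 and 563 on the vehicle arrays. All rapamycin arrays were lower than all vehicle arrays (log2 change -0.32, SE 0.06, adjusted p = 0.0011). Slc25a15 exchanges ornithine for citrulline and read 173, 156 and 146 on the rapamycin arrays, against 195, 198 and 196 on the vehicle arrays. It also separated the groups (log2 change -0.32, SE 0.06, adjusted p = 0.0023), and its other probe set fell by 0.21. Slc25a44, a carrier of branched-chain amino acids, read 309, 292 and 322 on the rapamycin arrays, against 337, 365 and 365 on the vehicle arrays. Its change of -0.21 passed (SE 0.06, adjusted p = 0.020), but not without vehicle replicate 2 or 3 or rapamycin replicate 2, nor with quantile normalization over 12 arrays. One of its other probe sets also fell (-0.19) and the last was at 0.13. The glycine carrier Slc25a38, needed for heme synthesis, was at -0.10, the basic amino acid carrier Slc25a29 at 0.03, the second glutamate carrier Slc25a18 at -0.01 and the second ornithine carrier Slc25a2 at -0.02.

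In the remaining groups, 1 carrier fell and 1 rose, beside 18% of all genes lowered and 11.3% raised. Slc25a30, a relative of the uncoupling proteins, read 680.4, 740.0 and 699.8 on the rapamycin arrays, against 787, 793 and 845 on the vehicle arrays, without overlap. It fell by 0.19 on the log2 scale (SE 0.06, adjusted p = 0.023), a call lost without vehicle replicate 3 or rapamycin replicate 1 or 3 and with quantile normalization over 12 arrays, and 1 of its 4 other probe sets fell. Its relatives Slc25a14 (-0.08) and Slc25a27 (0.04) did not pass, although another probe set of Slc25a27 rose by 0.26. Slc25a35, whose substrate is less settled, read 76.9, 77.0 and 74.8 on the rapamycin arrays, against 65.0, 66.6 and 68.0 on the vehicle arrays. These values did not overlap and the rise of 0.20 passed (SE 0.05, adjusted p = 0.013), but not without vehicle replicate 1 or with spike scaling. Slc25a46, an outer membrane member linked to mitochondrial shape, was at 0.06. Slc25a34, Slc25a45, Slc25a47, Slc25a48, Slc25a53 and Slc25a54 ran from -0.12 (Slc25a47) to 0.08 (Slc25a53), and none of them passed.

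**Figure D2:**
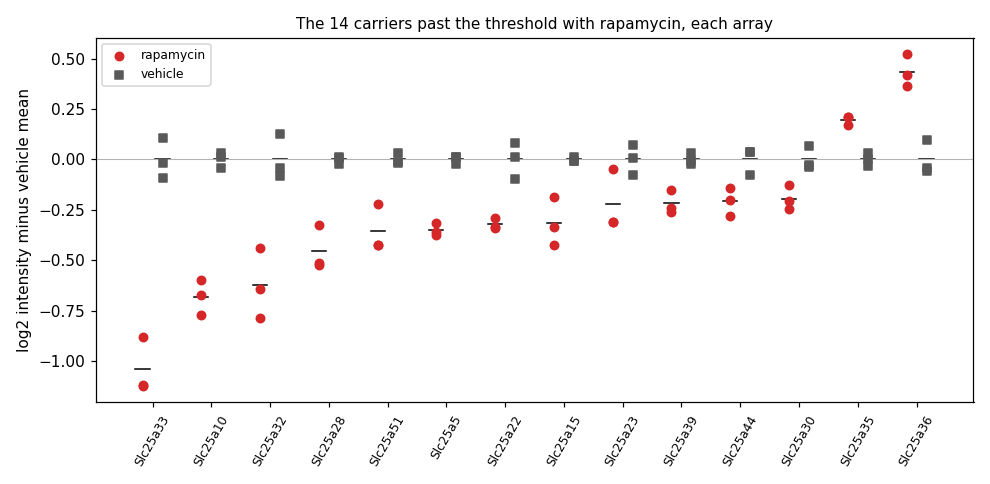
Each array's log2 intensity minus the vehicle mean for the 14 carriers past the threshold, rapamycin as circles left of vehicle as squares, with short lines for group means. The groups are apart for every carrier shown except Slc25a23, where rapamycin replicate 2 (179 in intensity) reaches above the lowest vehicle array.

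PGC-1alpha raised 2 of the 40 carriers, the glutathione carrier Slc25a39 by 1.39-fold and the ATP-Mg/phosphate carrier Slc25a23 by 1.30-fold, and lowered 0. The raised share of 5.0% stood beside 1.41% of all genes raised, 0.594% lowered and 2.01% called in all. The median carrier was at 0.03 and the median gene at 0.01 on the log2 scale. Spike scaling, which shifts every change by 0.17 here, also gave 2 raised and 0 lowered, while quantile normalization over 12 arrays gave 2 raised and 1 lowered, the last being Slc25a30. Both raised carriers were among those that fell with rapamycin.

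Slc25a39 read 4191, 3966 and 3991 on the PGC-1alpha arrays, against 2871, 2778 and 3111 on the GFP arrays. The lowest PGC-1alpha value was well above the highest GFP value, and the change was 0.47 (SE 0.06, adjusted p = 0.0024). Of its 5 probe sets 4 rose, by 0.37 to 0.47. This call held with any 1 array left out. Slc25a23 read 158, 179.9 and 157 on the PGC-1alpha arrays, against 119, 134 and 127 on the GFP arrays. Its groups did not overlap (log2 change 0.38, SE 0.07, adjusted p = 0.017). The call was lost without GFP replicate 1, PGC-1alpha replicate 2 or PGC-1alpha replicate 3, and the gene has no second probe set.

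Every PGC-1alpha array lay above every GFP array for 10 carriers and below for 2, beside 15.8% of genes without overlap in either direction. Besides the called pair, those above were Slc25a3, Slc25a4, Slc25a5, Slc25a10, Slc25a15, Slc25a26, Slc25a28 and Slc25a33, none of which passed. The phosphate carrier Slc25a3 read 7961, 7771 and 7763 on the PGC-1alpha arrays, against 6875, 6389 and 7186 on the GFP arrays. Slc25a4 read 5410, 5177 and 5514 on the PGC-1alpha arrays, against 4760, 4409 and 4792 on the GFP arrays. Slc25a5 read 6946, 6655 and 6906 on the PGC-1alpha arrays, against 6081, 5968 and 6253 on the GFP arrays. The 3 carriers had changes of 0.20 (SE 0.06, adjusted p = 0.15), 0.21 (SE 0.06, adjusted p = 0.13) and 0.16 (SE 0.06, adjusted p = 0.22). The carriers that fell furthest with rapamycin were at 0.20 for Slc25a33 (SE 0.06, adjusted p = 0.14), 0.18 for Slc25a10 (SE 0.07, adjusted p = 0.27) and 0.17 for Slc25a32 (SE 0.08, adjusted p = 0.45). Slc25a26, the S-adenosylmethionine carrier, was at 0.22 (SE 0.06, adjusted p = 0.11), the ornithine carrier Slc25a15 at 0.17 (SE 0.06, adjusted p = 0.24) and mitoferrin-2, Slc25a28, at 0.17 (SE 0.06, adjusted p = 0.26). The carriers below were Slc25a30 at -0.24 (adjusted p = 0.10) and Slc25a38 at -0.07 (adjusted p = 0.77). One of the other Slc25a30 probe sets fell by 0.36 and passed, as did one of Slc25a44, also by 0.36, whose brightest probe set was at 0.10.

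By substrate, the calls with PGC-1alpha were 1 of 4 carriers of iron and glutathione and 1 of 4 ATP-Mg/phosphate carriers. The other groups had 0, and of all genes 1.41% were raised and 2.01% called. Values, not calls, were positive for 3 of 3 ADP/ATP carriers (0.06 to 0.21) and 6 of 8 carriers of nucleotides and cofactors (-0.11 to 0.22). They were positive for 3 of 7 amino acid carriers (-0.08 to 0.17) and negative for 3 of 3 relatives of the uncoupling proteins (-0.24 to -0.05). Over all 40 carriers, 25 were positive and 15 negative with PGC-1alpha. Of all genes, 32.5% were positive with PGC-1alpha and negative with rapamycin, and 20.96% were positive in both comparisons. Whether signs differed between substrate groups was not tested. Slc25a36, raised by rapamycin, was at -0.07 with PGC-1alpha (SE 0.10, adjusted p = 0.89), and the glutamate carrier Slc25a22 at -0.02 (SE 0.06, adjusted p = 0.96). Slc25a51 was at 0.17 (SE 0.08, adjusted p = 0.44). The 7 carriers of less settled substrate ran from -0.18 (Slc25a54) to 0.08 (Slc25a53), and 0 passed.

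The count of raised carriers depended on GFP replicate 3. Without that array 12 carriers were raised and 0 lowered, beside 6.6% of all genes raised. In 11 of these 12 GFP replicate 3 was the highest of the GFP arrays, as it was in 20 of all 40 carriers. Leaving out a high GFP array raises the change by construction, so the 11 of 12 reflects in part how these carriers were picked. The share of all genes with this array highest was not computed. Slc25a46 read 544, 497 and 488 on the PGC-1alpha arrays, against 407, 391 and 492 on the GFP arrays. It was at 0.25 with all arrays (adjusted p = 0.20) and 0.35 without GFP replicate 3 (adjusted p = 0.0077). Slc25a24, with 929, 898 and 881 on the PGC-1alpha arrays, against 763, 735 and 942 on the GFP arrays, was at 0.16 with all arrays (adjusted p = 0.52) and 0.27 without it (adjusted p = 0.016). The others gained were Slc25a1 (0.25), Slc25a3 (0.24), Slc25a4 (0.23), Slc25a10 (0.24), Slc25a26 (0.25), Slc25a28 (0.23), Slc25a32 (0.27) and Slc25a33 (0.23). Slc25a39 was then at 0.52 and Slc25a23 at 0.39. The median of the 40 carriers was 0.03 with or without the array.

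**Figure D3:**
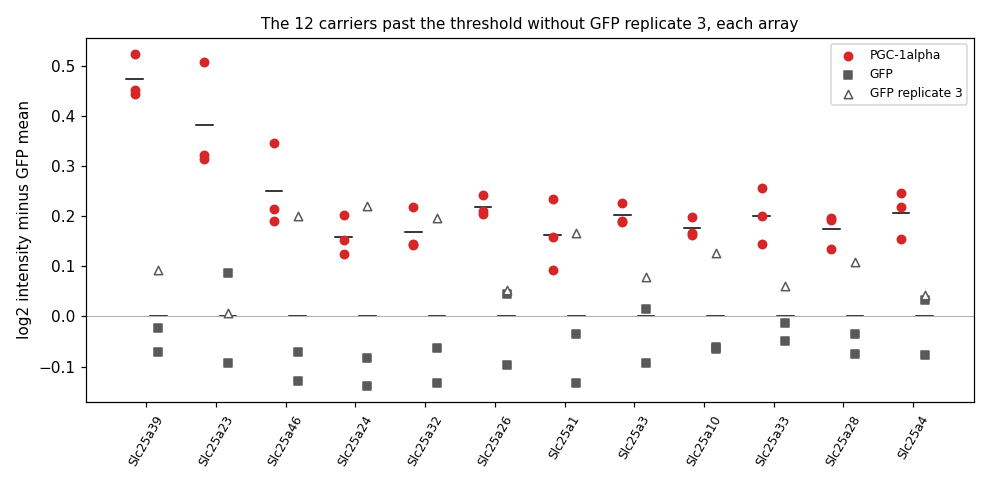
Each array's log2 intensity minus the GFP mean for the 12 carriers raised when GFP replicate 3 is left out, PGC-1alpha as circles left of GFP as squares, with GFP replicate 3 as an open triangle and short lines for group means. The triangle is the highest GFP array for every carrier shown except Slc25a23, and for Slc25a24 it lies above all PGC-1alpha arrays. Picking carriers in this way favours a high triangle.

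The 2 effects were then set against each other in a limma fit of all 12 arrays, as the rapamycin effect minus the PGC-1alpha effect. They differed for 14 carriers, 13 of them with the lower value under rapamycin, beside 24.1% of all genes called, 16.5% in that direction and 7.59% in the other. The difference was -1.24 for Slc25a33 (SE 0.10, adjusted p = 8.1e-08), -0.86 for Slc25a10 (SE 0.09, adjusted p = 1.2e-06), -0.79 for Slc25a32 (SE 0.12, adjusted p = 0.00011) and -0.69 for Slc25a39 (SE 0.08, adjusted p = 5.3e-06). Slc25a28 (-0.63), Slc25a23 (-0.60), Slc25a51 (-0.52), Slc25a5 (-0.51), Slc25a15 (-0.49), Slc25a22 (-0.30) and Slc25a44 (-0.30) differed the same way. The differences of Slc25a22 and Slc25a44 did not pass with quantile normalization over 12 arrays (adjusted p = 0.12 and 0.11), which puts both experiments on 1 distribution. Slc25a3 and Slc25a4 passed only here, with differences of -0.33 (SE 0.08, adjusted p = 0.0046) and -0.30 (SE 0.08, adjusted p = 0.0077). Slc25a36 was the one carrier past the threshold with the higher value under rapamycin (0.50, SE 0.12, adjusted p = 0.0057), and did not pass with spike scaling. Slc25a30, called with rapamycin, had a difference of 0.05 (SE 0.09, adjusted p = 0.77). With spike scaling 24 carriers passed with a lower value under rapamycin and 0 with a higher one, beside 43.3% of all genes passing with a lower value.

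The comparisons share no arrays. Over the 40 carriers their log2 changes correlated at Pearson -0.41 and Spearman -0.47, against -0.23 and -0.22 over all 18193 genes. Genes are not independent samples and share the arrays and normalization of each comparison, so these are descriptions. Of the carriers 22 (55.0%) had a negative value with rapamycin and a positive one with PGC-1alpha, against 32.5% of all genes, whether or not they passed a test.

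**Figure D4:**
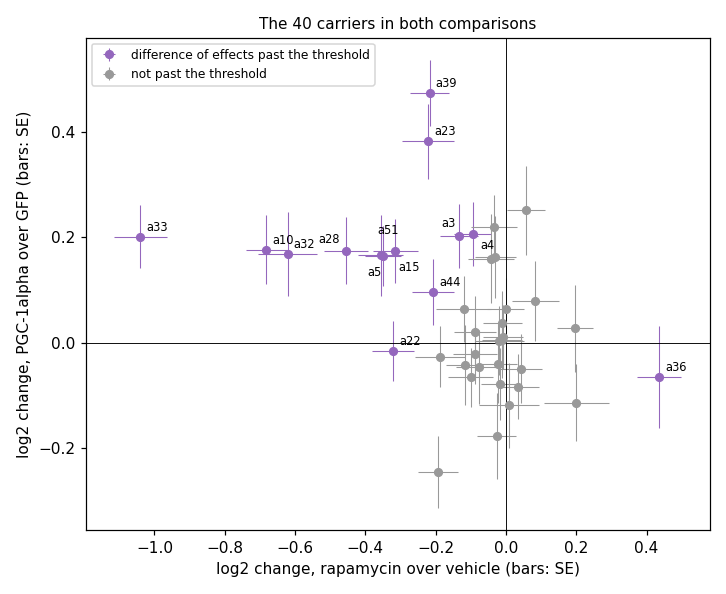
Log2 change with rapamycin over vehicle (horizontal) against that with PGC-1alpha over GFP (vertical) for the 40 carriers, with bars for the SE of each. The 14 carriers whose effects differ past the threshold are labelled by their family number, 13 of them on the left of the vertical line and Slc25a36 on the right.

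Of 13 genes that import carriers (outer membrane TOM subunits, small Tim proteins and the TIM22 complex), 10 fell with rapamycin and 0 rose, with a median of -0.42, beside 18% of all genes lowered, 11.3% raised and a median of -0.01. With PGC-1alpha 3 rose and 0 fell, with a median of 0.14, beside 1.41% of all genes raised, 0.594% lowered and a median of 0.01. Timm8a1, a small Tim protein, averaged 605 ± 52.0 on rapamycin arrays and 1281 ± 40.9 on vehicle arrays (SD, n = 3 each), a change of -1.09 (adjusted p = 2.5e-07). It averaged 1874 ± 157 on PGC-1alpha arrays and 1420 ± 109 on GFP arrays (SD, n = 3 each), a change of 0.40 (adjusted p = 0.019). Timm9, a subunit of the escort for carriers, changed by -0.66 with rapamycin (adjusted p = 4.5e-06) and 0.32 with PGC-1alpha (adjusted p = 0.042), and its partner Timm10 by -0.53 (adjusted p = 1.8e-05) and 0.31 (adjusted p = 0.048). Tomm40, the pore of the outer membrane, changed by -0.65 with rapamycin (adjusted p = 1.7e-06) and the small Tim protein Timm13 by -0.52 (adjusted p = 1.4e-05). With PGC-1alpha they were at 0.14 (adjusted p = 0.36) and 0.16 (adjusted p = 0.36) and did not pass.

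Transporters of the mitochondrial membranes outside the family were measured for 19 of 22 listed genes. With rapamycin 8 of the 19 fell and 2 rose (median -0.14), beside 18% of all genes lowered and 11.3% raised. Sfxn3, a sideroflexin, rose by 0.70 (adjusted p = 1.2e-06) and Micu2, a gatekeeper of calcium uptake, by 0.35 (adjusted p = 0.00026). Letm1, a cation exchanger, fell by 0.46 (adjusted p = 3e-05), the sideroflexin Sfxn5 by 0.44 (adjusted p = 0.00014) and the ABC transporter Abcb6 by 0.42 (adjusted p = 0.00028). With PGC-1alpha 2 of the 19 rose and 0 fell (median 0.05), beside 1.41% of all genes raised. Mpc1, a subunit of the pyruvate carrier, averaged 673 ± 11.6 on PGC-1alpha arrays and 519.6 ± 43.2 on GFP arrays (SD, n = 3 each), a change of 0.38 (adjusted p = 0.013). The outer membrane channel Vdac2 rose by 0.29 with PGC-1alpha (adjusted p = 0.032) and fell by 0.27 with rapamycin (adjusted p = 0.0026). Of 4 measured family members that bear another symbol, 1 fell with rapamycin, beside 18% of all genes lowered. It was Mtch2, an outer membrane insertase (-0.21, adjusted p = 0.014). With PGC-1alpha 0 of the 4 passed, beside 2.01% of all genes called.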

How the data were processed

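Affymetrix MOE430 v2 arrays, 12 in all, were grouped by their sample titles into 4 groups of 3. Per the series design text, the authors ran RMA with default settings from BioConductor 1.2, in 2 batches of 6 arrays, 1 batch for each experiment. The deposited intensity values span 9.30 to 21072, were read as linear, and entered every test as log2 with no pseudocount. Since no detection calls were available to this work, low signal and background are not separated. With 3 arrays a group the precision is limited. Quantile normalization within RMA makes changes relative to the other probe sets.

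The table holds 45101 probe sets, of which 64 Affymetrix controls were dropped and 45037 tested, unfiltered. limma 3.58.1 (lmFit and eBayes, two-sided) in R 4.3.3 fitted each comparison to its 6 arrays, with Benjamini-Hochberg adjustment over the 45037 probe sets. The difference of effects was a contrast of 4 group means over 12 arrays. The fit was tested on simulated data. The 40 members have 86 probe sets, and 21 members have several. Beyond the words "biological triplicates", no label says that arrays came from separate cultures. The p-values set each change against the spread between these samples, which may not be the spread between separate cultures.

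The members, substrate groups, companion lists and tests were chosen with earlier results of these data known. Members past the threshold in any test, the brightest and dimmest members and all members of a described substrate group are named, with the rest by range and count. Companion genes are named where past the threshold, at most 5 a list and comparison by size of change. Alternatives were a replicate block, leaving out each array, other choices of probe set, quantile normalization over 12 arrays, scaling on 18 bacterial spike probe sets, a filter at a mean log2 of 6, a pseudocount of 16, 1 fit over 12 arrays and eBayes with trend and robust. Replicate numbers were not used to pair the arrays in the main fits. Motif searches used RefSeq promoter windows matched by Entrez ID. Some genes of the lists are not analysed here. Python 3.11.15, pandas 2.3.3, numpy 2.4.6 and matplotlib 3.10.9 made tables and figures.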

Additional observations from a re-analysis of the deposited data

How the results depend on the processing

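The counts for rapamycin (12 lowered, 2 raised) ranged from 9 to 13 lowered and 1 (without vehicle replicate 1) to 2 raised with 1 array left out. The low end of 9 was without vehicle replicate 3. With spike scaling 25 were lowered and 1 raised, and every change is shifted by construction. Quantile normalization over 12 arrays gave 11 lowered and 3 raised, and the probe set brightest over the 6 arrays gave 12 lowered and 3 raised. Slc25a3 and Slc25a40, not called in the main fit, were each lowered under 4 of the 8 alternatives that kept all arrays. The 2 raised by PGC-1alpha ranged from 1 (without GFP replicate 1, PGC-1alpha replicate 2 or PGC-1alpha replicate 3) to 12 (without GFP replicate 3) with 1 array left out. 0 were lowered, except 1 (Slc25a30) with quantile normalization over 12 arrays and 1 (the same gene) in 1 fit over 12 arrays, which raised 3, Slc25a4 among them. For the difference of effects (13 lower, 1 higher), 13 to 17 were lower and 1 to 2 (without PGC-1alpha replicate 2) higher with 1 array left out, and 24 were lower and 0 higher with spike scaling. Of the 14 rapamycin calls 10 held under every alternative, and Slc25a23, Slc25a30, Slc25a35 and Slc25a44 were lost under at least 1. Of the 2 PGC-1alpha calls Slc25a39 held. Of the 14 differences 11 held, Slc25a22 and Slc25a44 were lost with quantile normalization over 12 arrays and Slc25a36 with spike scaling. No called change took the opposite sign under the alternatives run. The causes of these shifts were not tested.

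The main fits did not pair arrays by replicate number. Same-numbered arrays had correlations of deviations of -0.05, 0.07 and 0.0048 with rapamycin and vehicle, and -0.13, 0.23 and -0.01 with PGC-1alpha and GFP. Differently numbered arrays ran from -0.14 to 0.15 with rapamycin and vehicle, and from -0.22 to 0.21 with PGC-1alpha and GFP. With 3 arrays a group, these values cannot decide whether the numbers mark pairs. With the replicate block 13 carriers were lowered and 2 raised with rapamycin, 2 raised with PGC-1alpha, and 14 lower and 1 higher for the difference.

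Signal limits the reading of dim carriers: 6 of the 40 (Slc25a2, Slc25a18, Slc25a27, Slc25a31, Slc25a41 and Slc25a54) had a mean log2 intensity under 6, and 0 of them passed in either comparison. Among the brighter ones 41.2% were called with rapamycin, against 39.1% of genes as bright, and 35.3% were lowered, against 24.5%.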
